A study of Mus musculus with 57 samples.

Results

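The genes described here are the collagens and laminins, the proteins from which the fibres, sheets and basement membranes of the extracellular matrix are built. They were taken by symbol, as every measured gene named Col, a number, a and a number (Col4a1, for example) or named Lama, Lamb or Lamc with 1 digit. This gave 55 of the 21118 genes measured, namely 44 collagens and 11 laminins, and all 55 are protein coding under the same symbol in GENCODE release M21.

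The counts came from translating ribosome affinity purification (TRAP), in which a tagged ribosomal protein is pulled out of tissue together with the messages it is translating. The mice carried the transgene Aldh1l1-L10-GFP, which puts a green fluorescent ribosomal protein L10 under the control of the astrocyte gene Aldh1l1, and their strain was C57BL/6. The signal is therefore limited to cells in which that driver is active, together with any RNA carried along in the purification. Whole cerebral cortex was collected at 6 ages from both sexes, with 1 column of counts for each of 53 animals. There were 4 females and 4 males at P1 (P is the postnatal day), 4 and 4 at P4, 8 and 4 at P7, 5 and 5 at P14, 3 and 3 at P35, and 4 and 5 in adulthood. All groups share the transgene and the strain, none was treated, and no library of unpurified cortex was analysed here.

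A collagen is a trimer of alpha chains wound into a triple helix. Collagen IV chains join at their ends into the sheet of the basement membrane, whereas fibrillar collagens pack side by side into fibres and fibril-associated collagens sit on the surface of those fibres. A laminin is a cross of 1 alpha, 1 beta and 1 gamma chain, and it forms the second network of the basement membrane, bound by integrins and dystroglycan on the cells. In the brain, basement membranes lie around blood vessels and under the pia, where the end feet of astrocytes meet them, and fibrillar collagens belong mostly to the meninges and vessel walls.

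The sets of libraries have to be known before the ages are compared. The first digit after the dash in a library's name (1, 2, 3, 4 or 6) recurs across ages and sexes and is called a replicate set here, and the 4 libraries of P7 named S1 and S2, which came from a second sequencing run alone, form set S. Total counts ran from 14768178 to 48541139 per library with a median of 24033399, and 10085 to 18138 genes per library had at least 10 counts. P1 female 4 had the fewest of these genes and 10.1 CPM (counts scaled to the library's total) of Aldh1l1 itself, against 32.8 to 422 CPM in all other libraries. Xist and Y-linked counts, or the letter in the description, went against the labelled sex in 9 libraries, which stayed in their labelled groups. Oligodendrocyte markers summed to 3049 CPM in P7 male 6, the highest at P7 (median 344). They summed to 326 CPM in P14 male 6, the lowest at P14 (median 1062). Radial glia and progenitor markers summed to 991 CPM in P7 male 6, the lowest at P7 (median 7159). In P14 male 6 they summed to 6939 CPM, the highest at P14 (median 3276). Both libraries stayed at their labelled ages, and whether those labels hold was not tested. The 15 markers of mature astrocytes summed to a median of 1593 CPM at P1 and 17523 CPM in adults, and 14 of them rose while none fell.

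Messages of the collagens and laminins were scarce. Together they took between 0.00573% and 0.0475% of a library's counts, with a median of 0.0134%. The mean over all libraries was at least 5 CPM for 11 of the genes, from 1 to under 5 CPM for 25 and under 1 CPM for 19, and 10 genes had a count in every library. Per kilobase of exonic length, the highest mean levels belonged to Col9a3 (2.96 CPM per kb) and Col9a2 (2.08 CPM per kb), followed by Col16a1 (1.41), Col4a1 (1.31), Col6a1 (1.24), Col4a2 (1.17) and Col23a1 (1.11 CPM per kb). The highest mean level of a laminin per kilobase was that of Lamb1 (0.655 CPM per kb).

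From P1 to adulthood, more of these genes fell than rose. With the replicate set in the model and the sexes weighted equally, 11 of the 55 genes (20%) fell and 6 (10.9%) rose. The threshold was an adjusted p below 0.05 (edgeR quasi-likelihood test, Benjamini-Hochberg over all 21118 genes). Of all genes tested, 19.5% fell and 21.8% rose, so the share that fell was near that of all genes and the share that rose was lower. In either direction 41.3% of all genes changed, so 17 of 55 (30.9%) is a smaller share than that of all genes. The median log2 fold change was -0.21 over the 55 genes and 0.06 over all genes. A test of any difference among the 6 ages called 17 of the 55 genes, against 43.5% of all genes, and 14 genes passed both tests. Without the replicate block, 9 genes passed over the 6 ages, 2 rose and 6 fell, beside 24.9% and 28.1% of all genes called over the ages and from P1 to adult. Leaving out the 9 libraries that went against their sex gave 14 genes over the ages, 7 that rose and 8 that fell. In that fit 38.7% and 40.6% of all genes were called over the ages and from P1 to adult. In these bulk samples of purified RNA, a lower value can mean fewer of the cells that translate a message, less message per cell or less RNA carried along, and these cannot be told apart.

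**Figure D1:**
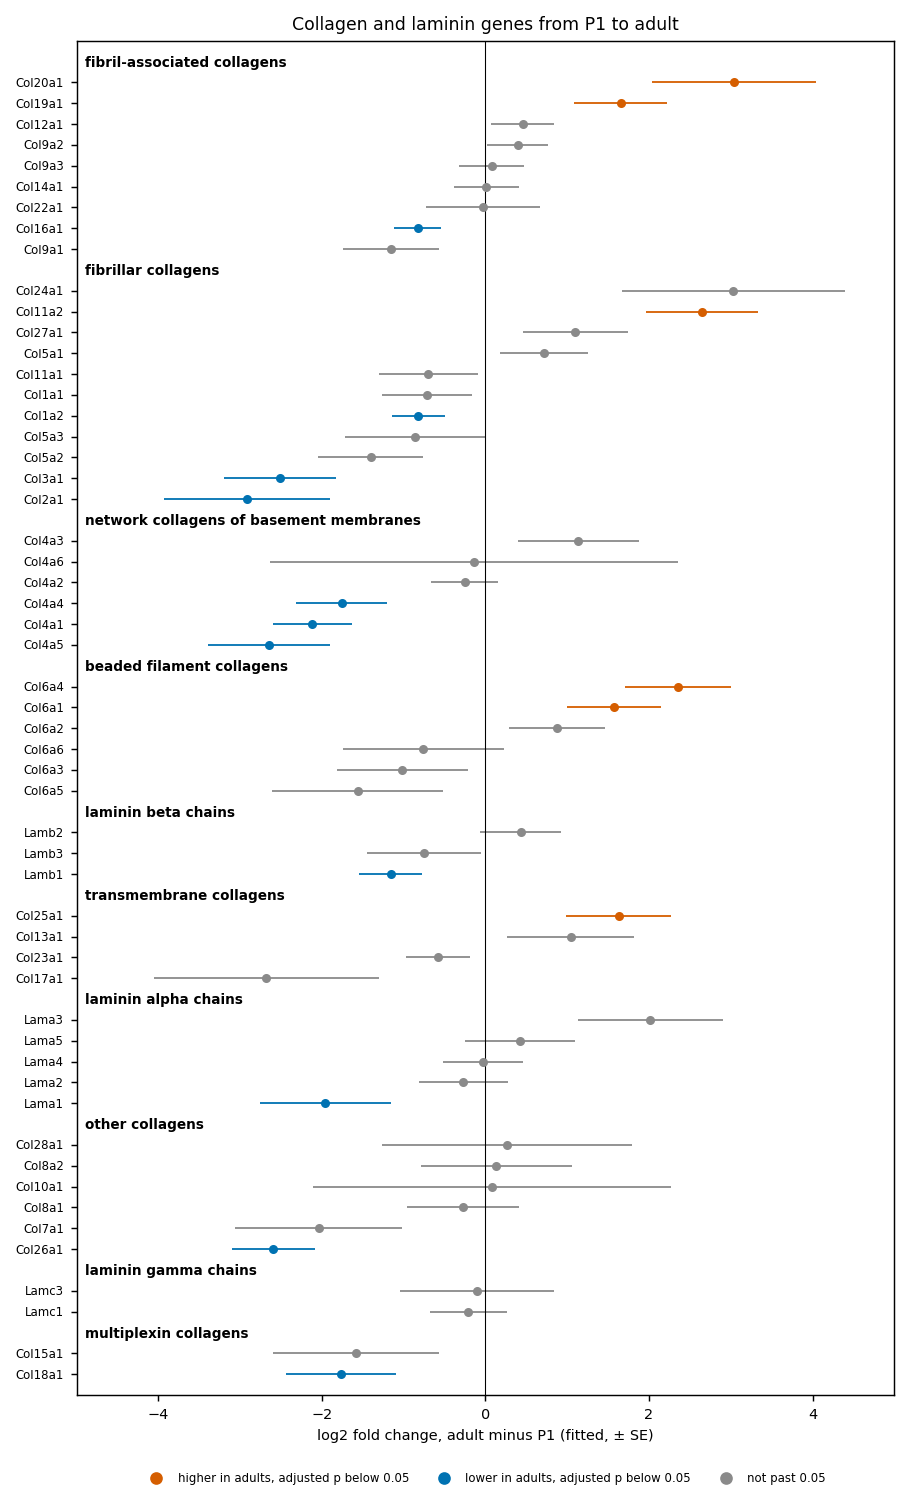
Fitted log2 fold change from P1 to adult (horizontal axis, adult minus P1, points with SE bars) for the collagen and laminin genes, grouped by the kind of chain, with 1 gene that did not pass left out. The 6 orange genes rose and the 11 blue genes fell at an adjusted p below 0.05, and 3 of the 6 network collagens are among those that fell.

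Of the genes for collagen IV, the network collagen of basement membranes, 3 of 6 fell and none rose. They lie head to head in 3 pairs, and in each pair 1 gene fell from P1 to adult while its neighbour did not pass the test. Col4a1, Col4a4 and Col4a5 fell, and Col4a2, Col4a3 and Col4a6 did not pass. A pass beside a neighbour that did not pass is not by itself a difference between them. The ratio of Col4a5 to Col4a6, given below, did not pass (exact permutation, adjusted p = 0.0671 over 6 ratios). The short stretches in which these pairs start are shown because they put the partners side by side. All were cut from the RefSeq promoter windows of build GRCm38.p6 and are given on the plus strand, with gene starts from GENCODE M21. The starts of Col4a1 (minus strand) and Col4a2 (plus strand) overlap by 22 bases, written in capitals, with 4 bases on each side, at chr8:11312801-11312830. The stretch between Col4a4 (minus) and Col4a3 (plus) holds the 71 bases at chr1:82586850-82586920. Col4a6 (minus) and Col4a5 (plus) start 1309 bases apart, and the 250 bases before Col4a6, at chrX:141474077-141474326, and the 216 bases before Col4a5, at chrX:141475169-141475384, are shown. In the last 3 stretches capitals mark CCAAT or GGGCGG, read on either strand.
Col4a1 and Col4a2: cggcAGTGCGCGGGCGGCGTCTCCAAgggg
Col4a4 and Col4a3: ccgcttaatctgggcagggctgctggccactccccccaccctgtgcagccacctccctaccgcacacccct
Col4a6: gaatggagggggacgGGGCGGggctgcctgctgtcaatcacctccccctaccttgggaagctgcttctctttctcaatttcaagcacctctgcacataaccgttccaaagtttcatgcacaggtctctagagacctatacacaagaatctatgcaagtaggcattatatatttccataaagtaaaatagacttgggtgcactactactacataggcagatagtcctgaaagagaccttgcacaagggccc
Col4a5: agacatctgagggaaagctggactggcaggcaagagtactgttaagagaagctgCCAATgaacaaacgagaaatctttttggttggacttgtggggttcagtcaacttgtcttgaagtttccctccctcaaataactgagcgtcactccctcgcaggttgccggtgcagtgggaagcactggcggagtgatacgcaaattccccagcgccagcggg

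The stretch before Col4a5 holds 1 CCAAT and that before Col4a6 holds 1 GGGCGG, while the 30 bases of Col4a1 and Col4a2 hold 1 GGGCGG within the overlap. The stretch between Col4a4 and Col4a3 holds neither motif, and no TATAAA is in any of the 4. Over whole RefSeq windows (250 bases before to 50 after a start), 40 of the 55 genes had at least 1 window and 44 windows in all. GGGCGG was in 26 of those 44 windows (59.1%) and in 35.7% of the 32851 windows of all genes. CCAAT was in 14 (31.8%, against 37.4%) and TATAAA in 5 (11.4%, against 13.6%). A match describes letters only, and nothing on a bound factor was measured.

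Col4a1 (chr8:11198423-11312826, minus strand, GRCm38) encodes the alpha 1 chain, the more numerous chain of the main collagen IV trimer. The libraries at P1 held 2.18 to 77.5 CPM with a median of 5.66, and the adult libraries held 0.770 to 8.27 CPM with a median of 2.23. The highest P1 library was P1 female 4, the one with the fewest genes, with P1 female 3 next at 24.7 CPM, and the 2 ages overlapped. Col4a1 had its highest median at P7 (10.7 CPM, from 2.87 to 38.7) and medians of 6.19 CPM at P4, 5.30 at P14 and 4.14 at P35. From P1 to adult it fell by 2.12 on the log2 scale (SE 0.48, adjusted p = 0.000415), and the mean log2 level was lower in adults in all 5 sets that hold both ages. Leaving out P1 female 4 gave a fall of 1.11 (adjusted p = 0.0169).

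Col4a2 encodes the alpha 2 chain, which joins alpha 1 chains in that trimer. Its libraries held 2.09 to 20.3 CPM at P1 (median 5.52) and 1.99 to 13.1 CPM in adults (median 3.44). It had its highest median at P35 (7.98 CPM, from 2.28 to 21.5). The log2 fold change from P1 to adult was -0.26 (SE 0.41, adjusted p = 0.648), lower in 3 of 5 sets and higher in 2.

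The balance of these partner chains moved toward Col4a2. Within a library, the log2 ratio of Col4a1 to Col4a2 averaged 0.46 ± 1.21 (SD, n = 8) at P1 and -0.72 ± 1.12 (SD, n = 9) in adults. In CPM not scaled by exonic length, Col4a1 was the higher of the pair in 5 of 8 P1 libraries, 7 of 8 P4 libraries and 9 of 12 P7 libraries. It was the higher in 7 of 10 P14 libraries, 0 of 6 P35 libraries and 2 of 9 adult libraries. The mean difference within sets, adult minus P1, was -1.26 (exact permutation of age within sets over 1296 arrangements, two-sided p = 0.00231, adjusted p = 0.0139 over 6 ratios). The difference was -0.94 without the libraries of fewest genes (exact permutation p = 0.00463). The 6 ratios were chosen after the values had been seen. The ratios compare each pair within a library, so a factor that scales a whole library cancels from them, apart from the pseudocount of 0.5. Reads from the 22 bases that Col4a1 and Col4a2 share cannot be assigned to either gene if strand was not used in the counting.

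Col4a4 encodes the alpha 4 chain, which with alpha 3 and alpha 5 makes the trimer of the kidney filter and a few other basement membranes. P1 libraries held 0 to 9.06 CPM (median 2.73) and adult libraries 0.367 to 1.64 CPM (median 0.944), and the lowest P1 library was without a count. The medians were 3.83 CPM at P4, 2.49 at P7, 1.80 at P14 and 0.567 at P35, so the level was low from P35 on. Col4a4 fell by 1.76 on the log2 scale (SE 0.55, adjusted p = 0.00896), with a lower mean in adults in 5 of 5 sets.

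Col4a3, its partner chain, was lower per kilobase (0.0535 CPM per kb over all libraries, against 0.233 for Col4a4). Its medians were 0.139 CPM at P1 and 0.664 CPM in adults, and its log2 fold change was 1.13 (SE 0.74, adjusted p = 0.225). The log2 ratio of Col4a4 to Col4a3 averaged 2.07 ± 1.39 (SD, n = 8) at P1 and 0.44 ± 0.68 (SD, n = 9) in adults, a within-set difference of -1.64 (exact permutation p = 0.0100, adjusted p = 0.0301 over 6 ratios).

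Col4a5 encodes the alpha 5 chain, from the X chromosome. Libraries at P1 held 0 to 4.43 CPM (median 1.96) and adult libraries 0 to 1.40 CPM (median 0.0919). One P1 library and 1 adult library were without a count. It fell by 2.64 on the log2 scale (SE 0.75, adjusted p = 0.00390), with lower means in adults in 5 of 5 sets. Its neighbour Col4a6, the alpha 6 chain, passed the test over the 6 ages (adjusted p = 0.0168) with medians of 0.277 CPM at P1, 0.667 at P4, 0.0210 at P35 and 0.181 in adults. Its log2 fold change from P1 to adult was -0.14 (SE 2.49, adjusted p = 0.975), and an SE derived from so small a change is unstable. The ratio of Col4a5 to Col4a6 differed by -1.02 within sets (exact permutation p = 0.0447, adjusted p = 0.0671 over 6 ratios), which did not pass.

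**Figure D2:**
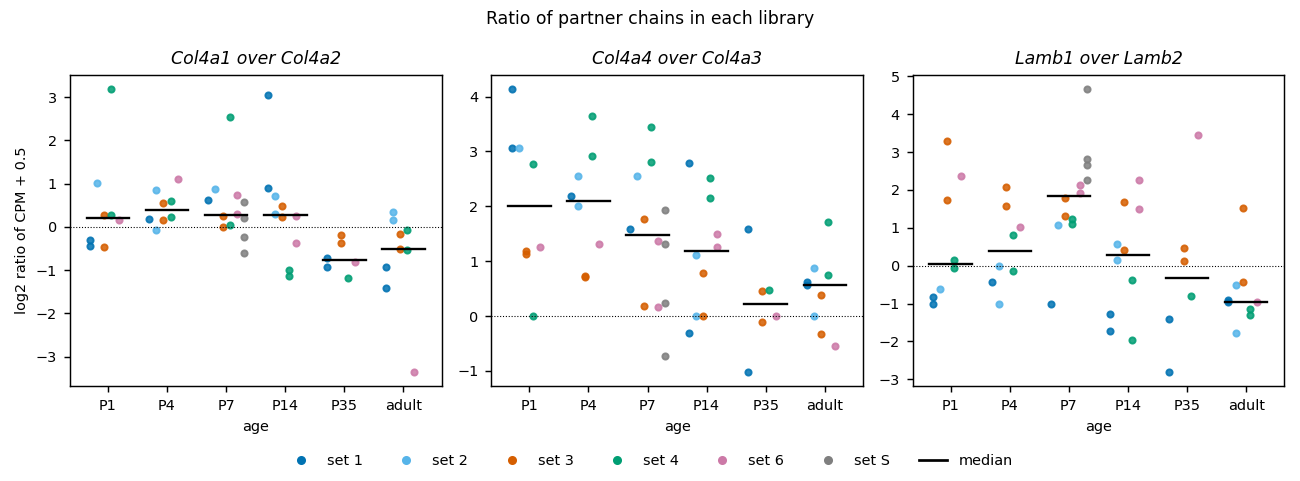
Log2 ratio of partner chains in each library (vertical axis, CPM with 0.5 added to each) by age, with colours for replicate sets and bars for medians. All 6 P35 libraries lie below 0 for Col4a1 over Col4a2, and the adult median of Lamb1 over Lamb2 is -0.95.

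Endothelial and mural cells of blood vessels are the main makers of collagen IV in brain, so their markers are given beside these genes. Of 14 endothelial markers, 3 rose and 2 fell from P1 to adult, with a median log2 fold change of -0.15. Their sum ran from 12.6 to 65.9 CPM at P1 (median 33.4) and from 18.3 to 124 CPM in adults (median 27.8). Of 14 mural markers, 1 rose and 2 fell, and their sum had a median of 72.1 CPM at P1 and 55.8 CPM in adults. No marker of either list was at 0 in all libraries of an age. Cldn5, the tight junction protein of endothelial cells, fell by 1.23 (SE 0.32, adjusted p = 0.00173), and Ly6c1, another endothelial marker, rose by 2.33 (SE 0.57, adjusted p = 9.04e-04). Their part in the fall of Col4a1, Col4a4 and Col4a5 was not tested.

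Of the other basement membrane collagens, the multiplexins, 1 of 2 fell. Col18a1, whose end fragment is endostatin, held 0.271 to 5.20 CPM at P1 (median 2.33) and 0.0333 to 2.08 CPM in adults (median 0.717). It fell by 1.77 (SE 0.67, adjusted p = 0.0320) with overlapping ages and a lower adult mean in 4 of 5 sets. The call was lost in 8 of the 17 fits with a P1 or adult library left out (adjusted p from 0.0129 to 0.0845), namely without P1 male 3, P1 male 4, P1 female 4, adult female 2, adult female 4, adult male 3, adult male 4 or adult male 60. It was also lost with no replicate block (adjusted p = 0.0977), without the 9 libraries against their sex (0.0794) and without the 3 libraries of fewest genes (0.0722). Col15a1 had a log2 fold change of -1.59 (SE 1.01, adjusted p = 0.214).

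Of 11 laminin genes, 2 fell from P1 to adult and none rose. Lamb1 (chr12:31265234-31329644, plus strand, GRCm38), the beta 1 chain of the laminins of early tissue and of vessels, held 0.211 to 18.9 CPM at P1 (median 3.04) and 0.839 to 7.18 CPM in adults (median 1.22). It had its highest median at P7 (10.2 CPM, from 0.786 to 26.6), where the highest library was of set S. Lamb1 fell by 1.16 (SE 0.39, adjusted p = 0.0141), lower in 4 of 5 sets, and did not pass without the replicate block (adjusted p = 0.0692).

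Lamb2, the beta 2 chain that replaces beta 1 in mature basement membranes, held 0.141 to 7.74 CPM at P1 (median 1.99) and 1.73 to 6.62 CPM in adults (median 2.88). Its log2 fold change was 0.43 (SE 0.50, adjusted p = 0.517). The log2 ratio of Lamb1 to Lamb2 averaged 0.63 ± 1.62 (SD, n = 8) at P1 and -0.72 ± 0.93 (SD, n = 9) in adults, a within-set difference of -1.24 (exact permutation p = 0.0154, adjusted p = 0.0309 over 6 ratios). In CPM not scaled by exonic length (9.92 kb for Lamb1, 6.08 kb for Lamb2), Lamb1 was the higher in 4 of 8 libraries at P1. It was the higher in 4 of 8 at P4, 11 of 12 at P7, 6 of 10 at P14, 3 of 6 at P35 and 1 of 9 in adults. The P7 libraries include the 4 of set S.

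Lama1, the alpha 1 chain of the earliest laminins, was the other laminin that fell, by 1.96 (SE 0.81, adjusted p = 0.0481). It was rare throughout, at a median of 0.401 CPM at P1 and 0.134 CPM in adults, and did not pass with DESeq2 size factors (adjusted p = 0.0541). Lama2, the alpha 2 chain of muscle and of the basement membrane at astrocyte end feet, had medians of 3.02 CPM at P1, 6.11 at P7 and 2.46 in adults, with a log2 fold change of -0.27 (SE 0.54, adjusted p = 0.725). Lama4 and Lama5, the alpha chains of vessel laminins, changed by -0.03 (SE 0.49) and 0.42 (SE 0.67), and neither passed. Lamc1, the gamma chain of most laminins, stood at a median of 2.72 CPM at P1 and 1.90 CPM in adults (log2 -0.21, SE 0.47, adjusted p = 0.755). Lama3 had a log2 fold change of 2.02 (SE 0.89, adjusted p = 0.0658), and Lamb3 and Lamc3 did not pass either.

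**Figure D3:**
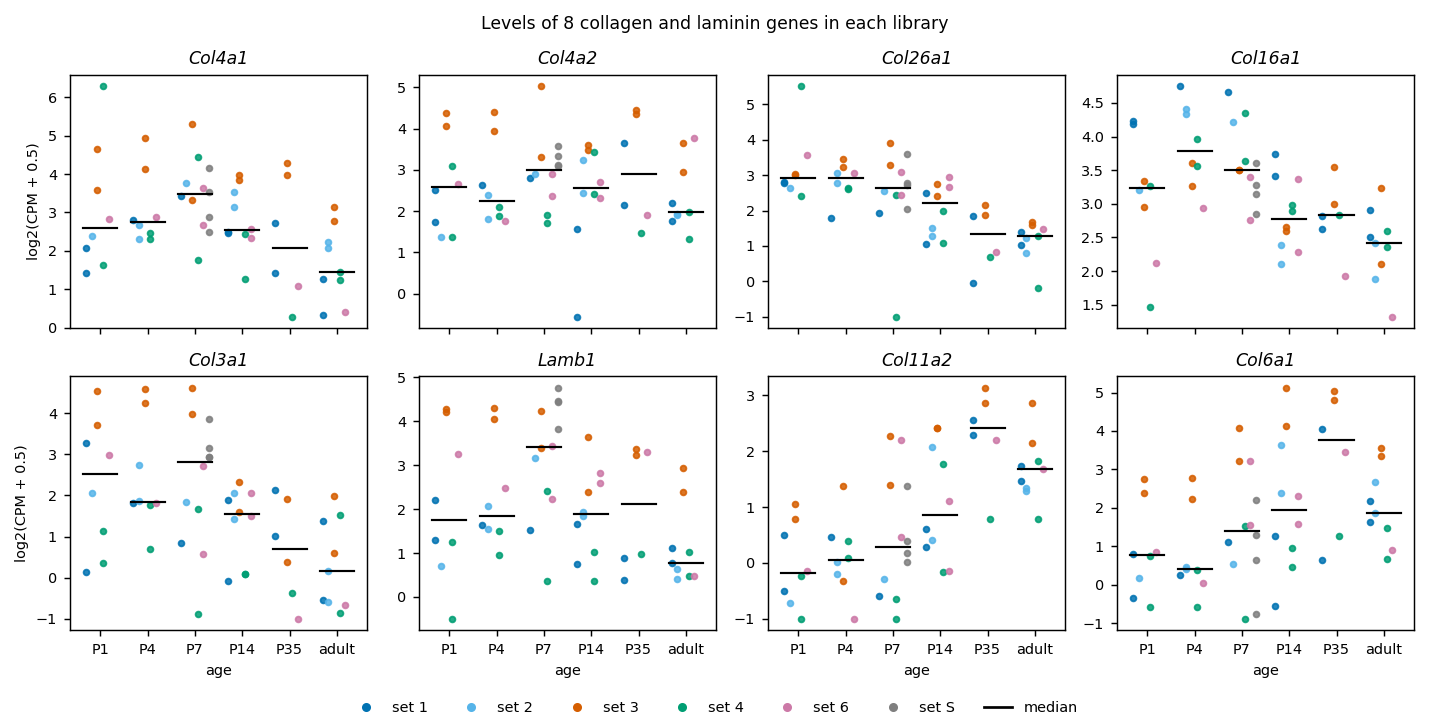
Level of 8 collagen and laminin genes in every library (vertical axis, log2 of CPM with 0.5 added) by age, with colours for replicate sets and bars for medians. The highest Col6a1 point at each age is of set 3 (orange), and the adult points of Col26a1 lie below all P1 points.

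Among the 11 fibrillar collagens, which form the banded fibres of connective tissue, 3 fell and 1 rose. Col3a1, the chain of collagen III found with collagen I in vessel walls and meninges, held 0.607 to 22.8 CPM at P1 (median 5.53) and 0.0452 to 3.49 CPM in adults (median 0.620). Its medians were 6.61 CPM at P7 and 2.44 CPM at P14. It fell by 2.51 (SE 0.68, adjusted p = 0.00289) and was lower in adults in 5 of 5 sets. The fall was 3.24 without adult female 3 and 3.13 without adult male 4.

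Col1a2, the alpha 2 chain of collagen I, held 3.33 to 19.5 CPM at P1 (median 8.53) and 1.57 to 10.9 CPM in adults (median 4.84). It fell by 0.82 (SE 0.32, adjusted p = 0.0387), lower in 5 of 5 sets, with ages that overlapped. The call was lost in 7 of the 17 fits that left out a library (highest adjusted p = 0.152), namely P1 male 1, P1 female 3, P1 female 6, adult male 2, adult female 2, adult female 3 or adult male 4. It was also lost with no replicate block (adjusted p = 0.122) and with DESeq2 size factors (adjusted p = 0.0551). Its partner Col1a1 had medians of 2.32 and 2.60 CPM at P1 and in adults and a log2 fold change of -0.71 (SE 0.55, adjusted p = 0.307). The within-set difference of the Col1a1 to Col1a2 ratio was 0.45 (exact permutation p = 0.309), and 0.80 without P1 female 4 (exact permutation p = 0.0231). The other 16 of 17 fits that left out a library did not pass (exact permutation p up to 0.526).

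Col2a1, the collagen of cartilage that is also made in embryonic neural tissue, fell by 2.91 (SE 1.01, adjusted p = 0.0185) at very low levels. Every P1 library had a count, from 0.0703 to 4.07 CPM with a median of 1.21. Of 9 adult libraries 5 had none, and the highest was adult male 60 at 1.73 CPM. The 6 libraries of P35 held 2 counts together.

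Col11a2, a chain of collagen XI that regulates fibre diameter, was the fibrillar collagen that rose. Libraries at P1 held 0 to 1.58 CPM (median 0.377), those at P14 0.391 to 4.84 CPM (median 1.33), those at P35 1.21 to 8.29 CPM (median 4.88) and adult ones 1.22 to 6.75 CPM (median 2.70). It rose by 2.64 on the log2 scale (SE 0.68, adjusted p = 0.00172) and was higher in adults in 5 of 5 sets, with differences within sets between 1.58 and 2.05. It passed in all 17 fits with a P1 or adult library left out. Its partner Col11a1 had a log2 fold change of -0.70 (SE 0.60, adjusted p = 0.373). Of the collagen V chains, Col5a2 had -1.40 (SE 0.64, adjusted p = 0.0745) and Col5a1 0.71 (SE 0.54, adjusted p = 0.300).

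Fibroblasts of the meninges are the usual source of fibrillar collagen in brain tissue. Of 16 markers of fibroblasts and leptomeninges, 2 rose (Fmod and Mgp) and 0 fell from P1 to adult, with a median log2 fold change of 0.18. Their sum ran from 91.3 to 147 CPM at P1 (median 118) and from 48.4 to 211 CPM in adults (median 150). The sums of the 2 ages overlapped, no marker was at 0 in all libraries of an age, and the part of these cells in the fall of Col3a1 and Col1a2 was not tested.

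The 9 fibril-associated collagens held the most abundant genes of the family and divided by age, with 2 that rose, 1 that fell and 6 that did not pass. Col9a3 and Col9a2 encode 2 of the 3 chains of collagen IX. Col9a3 held 0 to 22.2 CPM at P1 (median 8.03), 2.92 to 26.5 CPM at P35 (median 18.1) and 2.67 to 14.4 CPM in adults (median 9.78), with a log2 fold change of 0.08 (SE 0.39, adjusted p = 0.900). Col9a2 had medians between 4.70 CPM (P1) and 7.63 CPM (P7), and 4.97 CPM in adults (log2 0.39, SE 0.38, adjusted p = 0.423).

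Col9a1 encodes the remaining chain of collagen IX. Its medians were 1.89 CPM at P1, 3.09 CPM at P4, 4.53 CPM at P7, 2.13 CPM for P14, 0.629 CPM for P35 and 0.976 CPM for adults, and it passed the test over the 6 ages (adjusted p = 5.36e-04). The 6 libraries of P35 (0 to 1.14 CPM) overlapped only the lowest of the 12 P7 libraries, P7 female S2 at 1.10 CPM. From P1 to adult its log2 fold change was -1.16 (SE 0.58, adjusted p = 0.111).

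Col16a1, a fibril-associated collagen present in many tissues, had the smallest adjusted p of the family over the 6 ages (5.28e-05). It held, at P1, 2.25 to 18.3 CPM (median 8.91), 7.17 to 26.4 CPM at P4 (median 13.4), 6.28 to 24.9 CPM at P7 (median 10.8), 3.79 to 12.9 CPM at P14 (median 6.37), 3.30 to 11.2 CPM at P35 (median 6.61) and 2.00 to 8.91 CPM in adults (median 4.82). The level was thus highest in the first postnatal week. The fitted steps were 0.83 from P1 to P4 and -0.95 from P7 to P14, and the fall from P1 to adult was 0.83 (SE 0.29, adjusted p = 0.0203). The call from P1 to adult was lost when P1 female 1 or P1 female 3 was left out (highest adjusted p = 0.0664), and when the 9 libraries against their sex were (adjusted p = 0.0530).

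Col19a1, which is made by subsets of neurons as well as muscle cells, rose by 1.65 (SE 0.57, adjusted p = 0.0179). It held 0 to 7.38 CPM at P1 (median 1.09), 1.47 to 14.6 CPM at P35 (median 10.8) and 1.13 to 12.1 CPM in adults (median 2.51), and was higher in adults in 5 of 5 sets. Without the replicate block the log2 fold change was 1.05 and did not pass (adjusted p = 0.385). Col20a1 rose by 3.04 (SE 1.01, adjusted p = 0.0137) from 12 counts in all P1 libraries together to 99 in the adult ones. Its highest library held 1.74 CPM.

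Collagen VI, the beaded filament collagen of the pericellular matrix, had 2 of 6 genes that rose and none that fell. Col6a1 held 0.168 to 6.18 CPM at P1 (median 1.23), 1.05 to 32.4 CPM at P35 (median 13.3) and 1.09 to 11.3 CPM in adults (median 3.15). The highest library at every age was of set 3. It rose by 1.57 (SE 0.58, adjusted p = 0.0257) and was higher in adults in 5 of 5 sets, by 0.04 to 2.11 on the log2 scale. The call was lost in 4 of 17 fits that left out a library (P1 male 2, P1 male 4, P1 female 1 or adult female 1, highest adjusted p = 0.0799) and without the replicate block (adjusted p = 0.301).

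Col6a2 and Col6a3 encode the partner chains of the trimer. Col6a2 had a log2 fold change of 0.88 (SE 0.59, adjusted p = 0.240). Col6a3 passed the test over the 6 ages (adjusted p = 0.00379) with medians of 0.309 CPM at P1, 3.34 at P7, 0.756 at P14 and 0.0906 in adults, and a log2 fold change from P1 to adult of -1.02 (SE 0.80, adjusted p = 0.322). Col6a4, a chain related to alpha 3, rose by 2.35 (SE 0.64, adjusted p = 0.00291), from a median of 0.204 CPM at P1 to 1.24 CPM in adults. The within-set difference of the Col6a1 to Col6a2 ratio was 0.70 (exact permutation p = 0.134, adjusted p = 0.160 over 6 ratios). It was 0.96 without adult male 60 and 0.98 without P1 female 6 (exact permutation p = 0.00617 for each). These amount to 1 test, since set 6 holds 1 P1 and 1 adult library and drops out of both. Of 17 fits that left out a library, 15 did not pass (exact permutation p up to 0.444).

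Of the 4 collagens that span the cell membrane, 1 rose. Col25a1, a transmembrane collagen of neurons, held 0 to 6.92 CPM at P1 (median 0.975), 0.797 to 16.3 CPM at P35 (median 5.56) and 1.11 to 9.28 CPM in adults (median 2.90). It rose by 1.63 (SE 0.64, adjusted p = 0.0376), higher in 5 of 5 sets, and lost the call in 10 of 17 fits that left out a library (adjusted p from 0.0283 to 0.0972). These were the fits without P1 male 1, P1 male 3, P1 male 4, P1 female 1, P1 female 4, P1 female 6, adult female 1, adult female 4, adult male 3 or adult male 4, and the fit with no replicate block (adjusted p = 0.384) lost it too. Col23a1, the most abundant of them, had medians of 7.13 CPM at P1 and 3.21 CPM in adults with a log2 fold change of -0.58 (SE 0.39, adjusted p = 0.242). Without P1 female 4, in which it had no count, it fell by 0.81 (adjusted p = 0.0212).

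Beside the genes that rose, all 10 oligodendrocyte markers rose as well, and of 14 neuronal markers 8 rose and 4 fell. The neuronal markers summed to a median of 4986 CPM at P1 and 4098 CPM in adults, and the oligodendrocyte markers to 147 and 936 CPM. No marker of either list was at 0 in all libraries of an age, and their part in the rise of Col11a2, Col19a1, Col25a1 and Col6a1 was not tested.

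The remaining 6 collagens include the gene with the smallest adjusted p from P1 to adult. Col26a1 (chr5:136741759-136883209, minus strand, GRCm38), a secreted collagen known from testis and ovary, held 4.81 to 45.3 CPM at P1 (median 7.01), 2.97 to 10.5 CPM at P4 (median 7.11), 1.58 to 7.22 CPM at P14 (median 4.15), 0.463 to 3.95 CPM at P35 (median 2.19) and 0.372 to 2.71 CPM in adults (median 1.94). All 9 adult libraries lay below all 8 P1 libraries. Col26a1 fell by 2.59 on the log2 scale (SE 0.51, adjusted p = 6.29e-05), and by 1.88 without P1 female 4, its highest library (adjusted p = 0.000634). Of 9 measured markers of radial glia and progenitors, 7 also fell, with a median log2 fold change of -3.51 and sums with medians of 13835 CPM at P1 and 1351 CPM in adults, and their part in the fall of Col26a1 was not tested. Col7a1, Col8a1, Col8a2, Col10a1 and Col28a1 did not pass.

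No single step between neighbouring ages was called for any of the 55 genes by edgeR. Of all genes, 0.44% were called between P1 and P4, 1.67% between P4 and P7, 3.3% between P7 and P14, 1.15% between P14 and P35 and 0% between P35 and adult. At an unadjusted p below 0.05, 2, 6, 6, 6 and 5 of the 55 genes changed in these steps. Beside them stood 2543, 2825, 3666, 3136 and 884 of all 21118 genes. The smallest adjusted p-values were 0.0604 for the fall of Col16a1 from P7 to P14 and 0.0626 for the rise of Col20a1 from P4 to P7. DESeq2 called 1, 2, 3, 2 and 0 of the 55 genes, beside 3.18%, 4.38%, 7.57%, 3.71% and 0.597% of all genes. Those of the 55 were Col24a1 from P1 to P4, Col20a1 and Col6a1 from P4 to P7, Col16a1, Col1a2 and Col9a1 from P7 to P14, and Col4a4 and Col9a1 from P14 to P35.

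Females and males did not differ in any of the 55 genes at an adjusted p below 0.05 by edgeR, with 0 genes at an unadjusted p below 0.05 and 0 called by DESeq2. Of all genes, 0.0284% differed. The course over the ages differed between the sexes in 0 genes by edgeR and 0 by DESeq2, with 1 of 55 at an unadjusted p below 0.05, and in 0% of all genes. The largest differences, females minus males, among genes of at least 2 CPM on average were -0.67 for Col3a1 (SE 0.42) and 0.56 for Col4a4 (SE 0.32). These rest on labelled sexes, which 9 libraries went against.

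Differences between replicate sets were more frequent in this family than differences with age. They were called for 43 of the 55 genes (78.2%) and for 69.1% of all genes, in a test added after the data had been seen. Set 3 differed from set 1 in 26 of the 55 genes (47.3%), a smaller share than the 53% of all genes called. Of the 55 genes 24 were higher and 2 lower in set 3. Over all genes 11183 were called, 5953 of them higher. The median log2 difference was 1.33 over the 55 genes and 0.11 over all genes. In 47 of 55 genes the fitted difference of set 3 was above 0, a count that was not made over all genes. The 55 genes summed to 134 to 450 CPM in the 12 libraries of set 3 (median 249), 82.5 to 176 CPM in the 10 of set 1 (median 108) and 60.5 to 164 CPM in the 11 of set 4 (median 88.1).

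Lamb1 had the smallest adjusted p between sets (3.22e-10). It held 4.75 to 19.2 CPM in set 3 (median 11.1), 0.801 to 4.14 CPM in set 1 (median 1.80), 0.211 to 4.86 CPM in set 4 (median 1.48) and 13.7 to 26.6 CPM in set S (median 21.4). Libraries of set 3 thus all lay above those of set 1. Col4a1 and Col4a2 were higher in set 3 by 1.96 (SE 0.44) and 2.00 (SE 0.39), Col6a1 by 2.79 (SE 0.55) and Col19a1 by 2.64 (SE 0.54). The 2 genes that were lower in set 3 were Col4a4, at -1.71 (SE 0.50), and Col16a1, at -0.64 (SE 0.26). Of the 55 genes, 26 had their highest library of all ages in set 3, which holds 12 of the 53 libraries. The same count over all genes was not made.

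**Figure D4:**
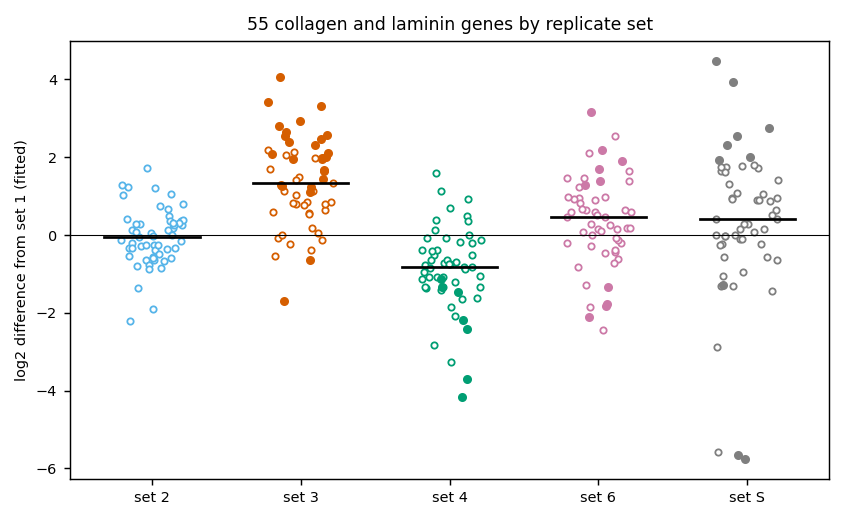
Fitted log2 difference of each replicate set from set 1 (vertical axis) for the 55 collagen and laminin genes, with filled points for an adjusted p below 0.05 and bars for medians. The median of set 3 is 1.33 and that of set 4 is -0.82.

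Markers of other cells differed in set 3 too, and not in set 3 alone. Endothelial markers were higher in 10 of 14 cases (median log2 difference 1.66), with sums from 29.9 to 171 CPM in set 3 (median 72.2) and from 12.6 to 43.4 CPM in set 1 (median 23.3). Mural markers were higher in 5 of 14 (median 1.15), neuronal markers in 14 of 14 (median 1.65) and oligodendrocyte markers in 5 of 10 (median 1.18). Mature astrocyte markers were lower in 15 of 15 (median -1.72). Neuronal sums had medians of 9759 CPM in set 6 and 9440 in set S, beside 8455 in set 3 and 2147 in set 1. Those of mature astrocytes were 2334, 2988, 3419 and 14130.5 CPM in the same order, with set S of P7 alone. The median log2 difference of the 55 genes from set 1 was 0.46 in set 6 and 0.40 in set S. Markers of fibroblasts and leptomeninges were higher in 0 of 16 and lower in 2, with a median of 0.02. Endothelial and mural markers had counts in set 3 and set 1 alike, and their part in the levels of the collagens and laminins there was not tested.

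Genes that work with collagens and laminins were counted in 4 lists. Among 14 other basement membrane components, 2 rose and 4 fell from P1 to adult, with a median log2 fold change of -0.66. Nid2, a nidogen that links laminin to collagen IV, went from 2.63 ± 1.35 CPM (SD, n = 8) to 0.572 ± 0.533 CPM (SD, n = 9) and fell by 2.50 (SE 0.70, adjusted p = 0.00353). Agrn, a heparan sulfate proteoglycan that binds laminin, fell by 0.99 (SE 0.29, adjusted p = 0.00543), and Ntn4, a netrin that binds laminin gamma chains, fell by 1.47 (SE 0.49, adjusted p = 0.0138). Sparc, a collagen-binding protein, rose by 0.83 (SE 0.26, adjusted p = 0.00868).

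Among 15 receptors of collagen and laminin, 3 rose and 1 fell. Itgb1, the beta 1 integrin shared by the collagen and most laminin receptors, went from 36.2 ± 15.8 CPM (SD, n = 8) to 15.3 ± 6.60 CPM (SD, n = 9) and fell by 1.31 (SE 0.21, adjusted p = 1.52e-06). The laminin receptors Itga7 (1.91, SE 0.53, adjusted p = 0.00360), Itgb4 (1.88, SE 0.50, adjusted p = 0.00212) and Bcam (1.54, SE 0.46, adjusted p = 0.00610) rose.

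Of 31 genes for the synthesis and assembly of collagen, 1 rose and 5 fell, with a median log2 fold change of -0.35. Lox, the enzyme that crosslinks collagen fibres, went from 2.17 ± 1.09 CPM (SD, n = 8) to 0.146 ± 0.332 CPM (SD, n = 9) and fell by 4.42 (SE 1.08, adjusted p = 9.92e-04). P4ha3, a subunit of prolyl hydroxylase, fell by 1.71 (SE 0.41, adjusted p = 7.43e-04), and another such subunit, P4ha2, rose by 1.53 (SE 0.52, adjusted p = 0.0157). Adamts3, which removes the end peptide of procollagens, fell by 1.62 (SE 0.51, adjusted p = 0.00908).

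Of 19 genes of matrix breakdown and its inhibitors, 2 rose and 2 fell. Timp4, an inhibitor of matrix metalloproteinases, went from 53.2 ± 54.1 CPM (SD, n = 8) to 406 ± 210 CPM (SD, n = 9) and rose by 2.93 (SE 0.42, adjusted p = 3.51e-07), and the inhibitor Timp3 rose by 1.24 (SE 0.51, adjusted p = 0.0498). The metalloproteinases Mmp24 and Mmp2 fell, by 1.84 (SE 0.31, adjusted p = 5.03e-06) and 1.52 (SE 0.56, adjusted p = 0.0270).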

How the data were processed

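Counts per gene, whole and not normalized, were used as the authors deposited them, in 53 columns with 1 animal each. The submitters' processing notes name the build GRCm38.p5 and the tools featureCounts, HISAT2, SAMtools and CASAVA, and the libraries were strand-specific, per the labels' protocols. The labels list 57 samples, since 4 animals of P7 were sequenced in 2 runs. The columns of these 4 held 42222297 to 48541139 counts each, and the next highest, adult male 60, held 32140380. Whether those 4 columns join both runs is not given in the sources used here. Neither is the annotation release or the strand setting of the counting, so reads of overlapping or antisense genes cannot be told apart.

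With edgeR 4.0.16 in R 4.3.3, all libraries were fitted in 1 quasi-likelihood model with TMM scaling with age, sex, their interaction and replicate set, and p-values were adjusted over 21118 genes (Benjamini-Hochberg, threshold 0.05). The filter on low counts removed 0 genes. CPM are on TMM-scaled totals, and fold changes of rare genes depend on the prior count of the fit. Each SE is the absolute log2 fold change divided by the square root of the F statistic of its test. Such an SE is not a direct estimate from the model and is unstable where the fold change is near 0. The genes and lists were chosen with earlier results of these data known. Named genes passed from P1 to adult with at least 2 CPM at the higher age (up to 10 per direction), were among the 8 highest in mean CPM or were partner chains of such genes, and of other lists up to 4 genes by smallest adjusted p. Any other gene named was chosen after its values were seen. Chain ratios used log2 of CPM plus 0.5. Alternatives were a fit with no replicate block (keeping a term for set S), DESeq2 1.42.0, other filters, and libraries left out singly (with the dispersion trend of all libraries) or together. On simulated data, 40% of 100 genes changed by 1 log2 unit and 54% of 100 changed by 2 were recovered from P1 to adult. No other gene changed there, and sets and earlier ages did not differ. In the real data 41.3% of all genes were called, so these rates do not measure how often real changes were found. A few items are not reported here.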

Additional observations from a re-analysis of the deposited data

Results flagged for a closer look

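Of 85 sets of values (a named gene at an age with 6 to 10 libraries), 9 had a highest library far from the rest by Dixon's criterion. Its chance rate of about 1 in 20 holds for normal values of 1 population. These CPM were not put on a log scale and pool the replicate sets and sexes, so that rate does not apply to the 9. P1 female 4, the library with the fewest genes, held 77.55 CPM of Col4a1 (next 24.66) and 45.28 CPM of Col26a1 (next 11.35). Set 3 held 5 of them. P1 female 3 had 6.921 CPM of Col25a1 (next 2.793), P4 female 3 had 2.113 CPM of Col11a2 (next 0.8724), and adult male 3 had 6.753 CPM of Col11a2 (next 3.921). P14 male 3 had 34.27 CPM of Col6a1 (next 16.99) and 12.1 CPM of Lamb1 (next 6.532). The other two were Col4a4 in P14 female 1 at 10.03 CPM (next 3.01) and Col9a2 in P35 female 6 at 16.58 CPM (next 6.831).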

How the results depend on the processing

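Sets are uneven over the ages: set 2 is missing at P35 and set S occurs at P7 alone, so the step values lean on the model. Deviations of libraries that share a set but not a group had a median correlation of 0.346 (223 library pairs, from -0.147 to 0.714), against -0.0798 for 1055 pairs of different sets, a hint from the data that sets pair libraries. With no replicate block, 9 genes passed over the ages (24.9% of all genes), 2 rose and 6 fell (28.1% of all genes in either direction). DESeq2 gave 1, 2, 3 and 2 genes in the first 4 steps, with the shares of all genes given above. Leaving out the 3 libraries of fewest genes gave 2 (P4 to P7, beside 5.2% of all genes), 2 (P7 to P14, 6.17%) and 1 (P14 to P35, 4.99%). Leaving out 1 library at a time gave 16 to 19 genes over the ages, 4 to 6 that rose and 8 to 12 that fell. From P4 to P7 these fits gave 0 to 2 genes (2 without P7 male 2, 1 without P7 female 40). From P7 to P14 they gave 0 to 2 (2 without P14 male 6, 2 without P7 male 6). In both of these libraries the oligodendrocyte and progenitor markers lay at the extremes of their labelled age, as given above. The shares of all genes called in these fits were not kept. Counts of 0 for the other steps, the sexes and the interaction stayed at 0 in every setting except the DESeq2 step counts above and the fewest-gene count from P14 to P35. The filters left all counts over the ages and from P1 to adult as they were. With 1 library left out at a time, the chain ratios differed within sets by -1.43 to -0.90 for Col4a1 to Col4a2, -1.37 to -0.90 for Lamb1 to Lamb2, -1.99 to -1.32 for Col4a4 to Col4a3, 0.29 to 0.80 for Col1a1 to Col1a2, 0.30 to 0.98 for Col6a1 to Col6a2 and -1.19 to -0.65 for Col4a5 to Col4a6. Col4a5 to Col4a6 was -1.56 with a pseudocount of 0.1 (exact permutation p = 0.108), and Col1a1 to Col1a2 was 0.80 without the 3 libraries of fewest genes (exact permutation p = 0.0231). The latter is the same fit as that without P1 female 4, the only P1 or adult library of those 3. The cause of these shifts was not tested.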
